A study of Mus musculus with 4 samples.

Results

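The IL-12, IL-15 and IL-18 axis was followed here through 10 genes among the 27998 in the count matrices, taken by symbol: the cytokine genes Il12b, Il15 and Il18, the decoy gene Il18bp, and the receptor genes Il12rb1, Il12rb2, Il15ra, Il2rb, Il18r1 and Il18rap. All 10 were in the files. No member was among the marker genes that named the cells, although some members' levels follow those markers. The cells were CD45+ immune cells sorted from subcutaneous B16F10-OVA tumours, a mouse melanoma line that expresses ovalbumin, grown in C57BL/6 hosts. The 4 groups were wild type (WT) mice at day 9, WT mice at day 12, and mice with a T cell conditional knockout of miR-155 (TCKO) at the same days. Each group was 1 droplet 3' single-cell library from pooled tumours, and the labels used here do not name the Cre driver. No p-value below therefore measures the spread between replicate libraries of a group. Those for genotype and day rest on 1 residual degree of freedom, the departure from additive effects, and on variance shared across genes. Those between cell types rest on the spread of the differences within the 4 libraries. The day cannot be told apart from the run in which its tumours were prepared.

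IL-12 is a heterodimer whose p40 chain is encoded by Il12b. It is made by activated dendritic cells (DC) and macrophages and acts through IL-12Rβ1 and IL-12Rβ2 and the factor STAT4 to promote interferon-γ production in NK and T cells. IL-15 is carried on the surface of myeloid cells by IL-15Rα and presented to neighbouring lymphocytes, where IL-2Rβ, encoded by Il2rb, and the common γ chain transmit its survival signal. IL-18 is stored as a precursor that inflammasome caspases cleave, it signals through IL-18R1 and IL-18RAP, and it is held in check by the soluble decoy IL-18BP, a product that interferon-γ is known to induce.

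The deleted microRNA reads targets through a seed at its 5' end, and the sequences below show which members carry a match to it. The capitals mark the seed, bases 2 to 8, in mature mmu-miR-155-5p (RefSeq, GRCm38.p6, chr16:84714143-84714165, plus strand).
mmu-miR-155-5p: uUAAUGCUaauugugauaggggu
The complement of those bases was present in the annotated 3' UTR of 2 of the 10 members, shown here with the match in capitals and 11 flanking bases on each side (GRCm38, plus strand). Il15ra carries 2 matches (chr2:11733957-11733985 and chr2:11734165-11734193), and Il18r1 carries 1 (chr1:40499092-40499120).
Il15ra, first match: tcagtacaaaaAGCATTAaaattatcaac
Il15ra, the other match: tgagcccagctAGCATTAgacacatacct
Il18r1: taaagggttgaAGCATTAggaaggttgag
The first Il15ra match is an 8mer and the others are 7mer-m8 matches. Of all 21707 genes with an annotated 3' UTR, 8.06% hold at least 1 such match, so a match in these UTRs is a description and not a shown target. Il18r1 and Il18rap lie next to each other on chromosome 1, at chr1:40465552-40500854 and chr1:40515362-40551705.

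The libraries held 1778 (WT day 9), 3749 (TCKO day 9), 3684 (WT day 12) and 2059 (TCKO day 12) barcodes, with 18783490 to 33902064 UMIs (deduplicated transcript tags) each and a median of 7379 to 9655 UMIs per barcode. Any 2 libraries shared 4 to 16 barcode sequences. Mir155hg, the host transcript of miR-155, had 87 UMIs in the CD8 T cells of WT day 9 and 16 in those of WT day 12, and 0 in both TCKO libraries. It was present in NK cells of every library, at 5 to 12 UMIs; whether its tag lies inside the deleted part is not given in the labels. Each cell was named from its own UMIs of 6-gene marker lists, which left 862 of 10944 cells (7.88%) unnamed. Of the named cells, 3792 (37.6%) led the next type by at most 2 of 6 in the share of markers detected. This held for 10.0% of CD8 T cells, 13.4% of mature DC, 46.8% of monocytes or macrophages and 81.1% of cDC2. Only 4 genes of the T cell list were available, so the CD8 T percentage is not on the same scale as the others. The same name was given to 90.1% of named cells in clusters built without the members. Those clusters were named from the same markers, so the share is not an independent check. Mature DC, named by Ccr7, Fscn1, Ccl22, Cacnb3, Tmem123 and Socs2, numbered 43, 74, 119 and 173 in the order given above, and monocytes or macrophages 238, 1737, 1602 and 868. Levels below are UMIs per 1000000 UMIs of that cell type in that library (CPM), listed as WT then TCKO at day 9, and WT then TCKO at day 12. Intervals are exact 95% intervals for counting error only.

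The cytokine genes were split between myeloid cells. Il12b was concentrated in mature DC, Il18 in monocytes, macrophages and cross-presenting cDC1, and Il15ra was highest in mature DC, as was Il15 except in the WT day 9 library, where monocytes were higher. Il2rb, Il18r1 and Il18rap were highest in NK and T cells. The map of mean levels shows this division across 11 cell types.

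**Figure D1:**
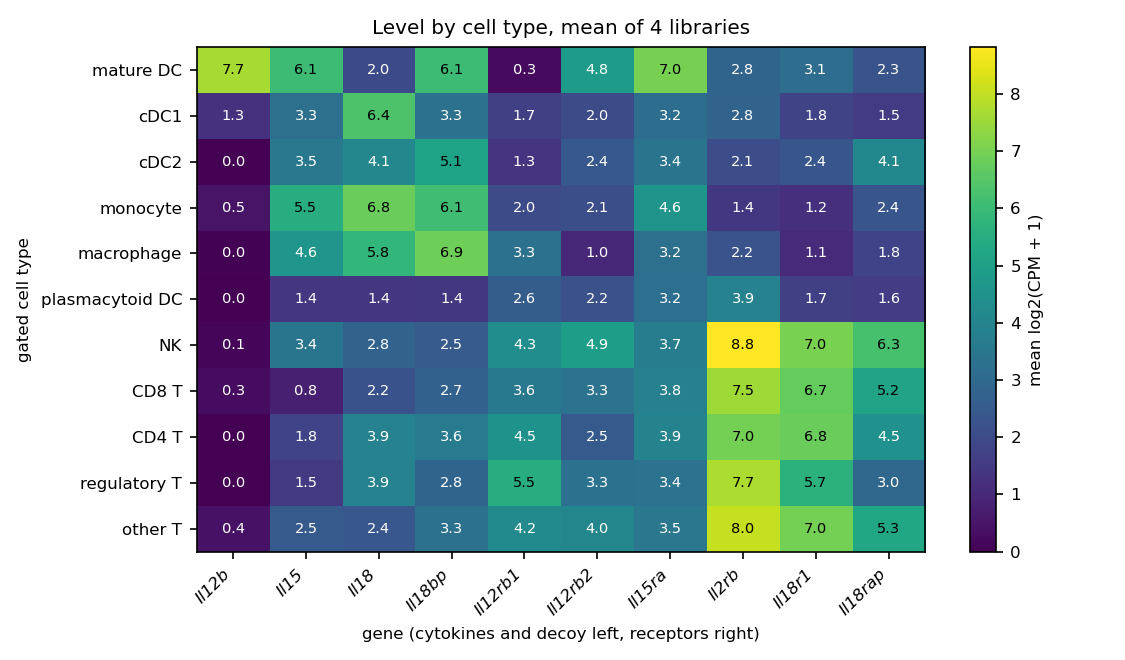
Mean over the 4 libraries of log2(CPM + 1) for each gene (columns; cytokines and the decoy on the left, receptors on the right) in each gated cell type (rows). Il12b stands out in mature DC, Il18 in monocytes, macrophages and cDC1, and Il2rb, Il18r1 and Il18rap in NK and T cells.

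Il12b, the IL-12 p40 gene, reached 378, 104, 163 and 248 CPM in mature DC. In cDC1 it was at 9.48, 0, 2.26 and 0 CPM, with all of its UMIs in a single cell at each day. In every library mature DC were above cDC1. Mature DC held 74.4%, 91.4%, 93.9% and 98.7% of each library's Il12b UMIs, and in the WT day 9 library a further 16.4% lay in unnamed cells. A UMI of Il12b was found in 55.8%, 18.9%, 23.5% and 35.3% of mature DC, and in 41.9%, 14.9%, 16.1% and 25.0% after every cell was thinned to 3000 UMIs. In CD8 T cells, which should lack the gene, the share was 0% to 0.434%. The median depth was 7448 to 8828 UMIs in mature DC and 4286 to 12146 UMIs in CD8 T cells. Thinning left out 0, 0, 1 and 5 mature DC. The partner subunits were much scarcer. Il12a, the p35 gene, had no UMI in mature DC or cDC1, and Il23a, which pairs with p40 to form IL-23, had none in mature DC, cDC1, cDC2 or monocytes and macrophages. Apart from these partners, Ebi3, which encodes a subunit of IL-27, was at 90.4, 80.3, 58.8 and 57.0 CPM in mature DC.

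In the contrast of mature DC over cDC1, fitted with the library as a block, 53.2% of 7693 genes passed adjusted p 0.05 in the edgeR quasi-likelihood test, adjusted by Benjamini-Hochberg. Of the 8 members tested, 6 were higher and 1 lower, a share that must be read against that high background. Il12b was higher by 6.43 ± 0.33 log2 units (SE, 4 libraries, adjusted p = 8.1e-09), Il15ra by 4.15 ± 0.22, Il12rb2 by 3.45 ± 0.35, Il15 by 3.03 ± 0.26, Il18bp by 2.67 ± 0.31 and Il18r1 by 1.98 ± 0.44. The fitted Il12b value depends on a prior count, because 2 of the cDC1 libraries were at 0. Il18 went the other way, at -4.64 ± 0.27 log2 units (adjusted p = 2.2e-08). The median over the 8 members was 2.85 log2 units, beside -0.02 over all genes tested.

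Il15 in mature DC was at 51.0, 55.0, 78.0 and 82.9 CPM, above the monocytes of the same library in 3 of 4 libraries (55.5, 34.8, 46.9 and 42.3 CPM). Macrophages were lower still, at 34.4, 8.98, 32.9 and 26.4 CPM. Il15ra, which carries IL-15 to the cell surface, was at 121, 104, 145 and 140 CPM in mature DC, and no other named cell type exceeded 35.0 CPM in any library. Because monocytes and macrophages were numerous, they held 45.5%, 76.5%, 67.2% and 56.3% of all Il15 UMIs, against 9.8%, 7.1%, 9.3% and 25.4% for mature DC. NK cells also held Il15 transcripts, at 8.47, 12.2, 11.4 and 7.98 CPM, whereas CD8 T cells were at 0.897, 0.839, 1.36 and 0 CPM.

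Il18 was at 137, 87.7, 133 and 93.1 CPM in monocytes and at 68.6, 54.1, 97.5 and 123 CPM in cDC1, and these types overlapped. In mature DC it was at 2.32, 2.82, 4.27 and 2.59 CPM, that is 1, 2, 4 and 4 UMIs. That level is similar to that of CD8 T cells (2.10 to 8.67 CPM), where free RNA in the droplets could give as much. Il18bp, the decoy, was at 104, 60.6, 60.9 and 47.3 CPM in mature DC and at 22.6, 7.92, 19.0 and 1.45 CPM in cDC1. Mature DC thus had little Il18 transcript and more of its decoy, and cDC1 the reverse order for the same 2 genes.

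**Figure D2:**
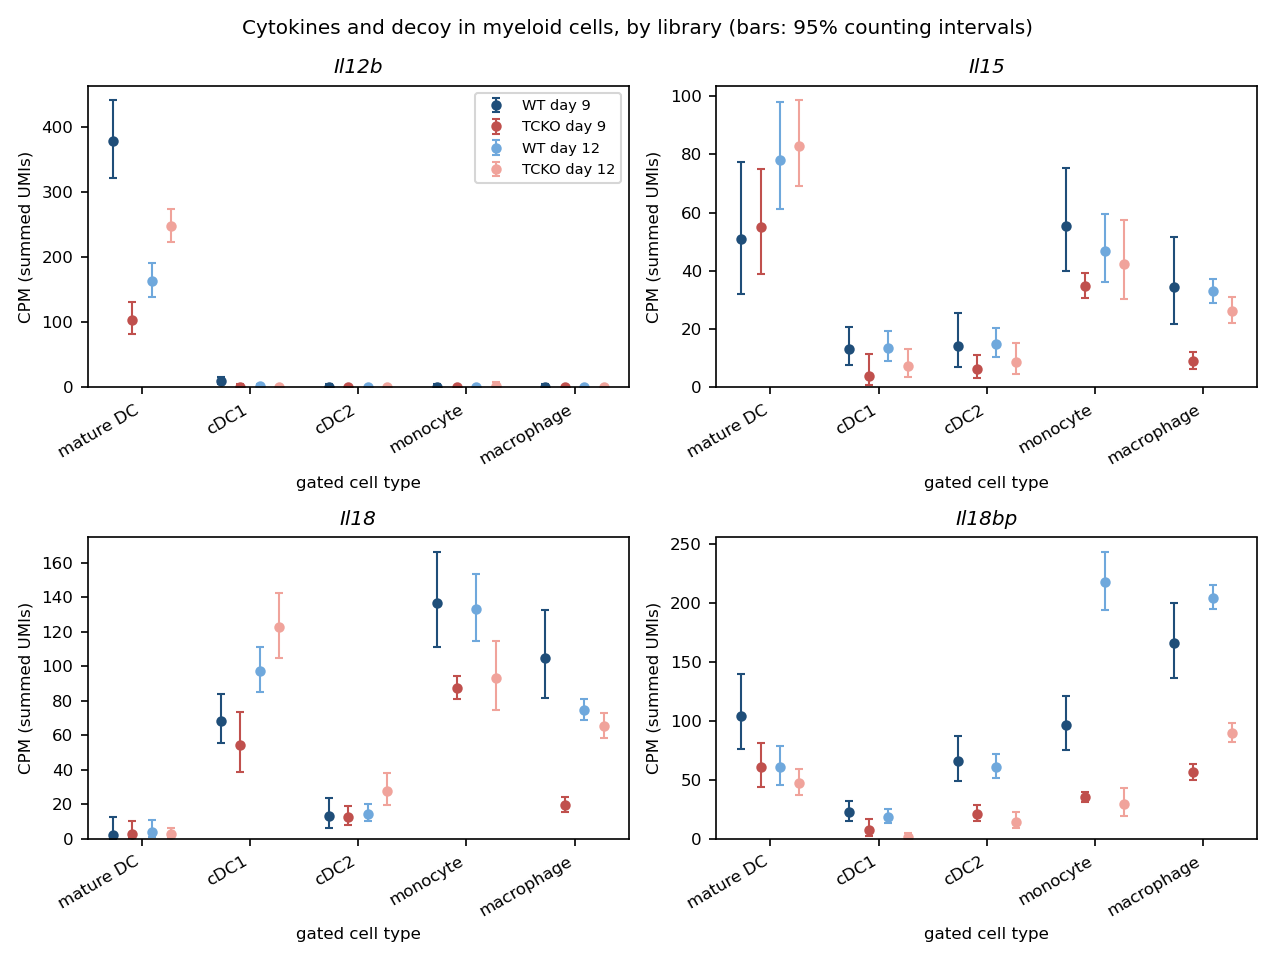
CPM of Il12b, Il15, Il18 and Il18bp (panels) in 5 myeloid cell types (horizontal axis), with 1 point per library coloured by genotype and day and bars for 95% counting intervals. Il18bp is lower in both TCKO libraries than in the WT library of the same day in all 5 cell types, and Il12b in mature DC lies in a different order at the 2 days.

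Set against monocytes and macrophages together, 59.7% of 8862 genes passed the same edgeR test in mature DC, and of 9 members 6 were higher and 2 lower. Il15 was higher by 1.35 ± 0.19 log2 units (edgeR adjusted p = 3.3e-05), Il15ra by 3.43 ± 0.19 and Il12rb2 by 4.04 ± 0.42. Il18 differed by -4.43 ± 0.26 and Il12rb1 by -4.29 ± 0.78, the latter from a total of 0, 0, 1 and 0 UMIs in mature DC. Il18bp did not pass (-0.39 ± 0.24, adjusted p = 0.18). Il2rb (1.96 ± 0.50) passed with all 4 libraries, but without the WT day 9 library it was 1.17 with an adjusted p of 0.17. In that library the 4 T cell markers summed to 332 CPM in mature DC, against 6.48 to 36.6 CPM in the others, and Il2rb was at 60.3 CPM against 1.07 to 4.53 CPM. Il18r1 in mature DC moved the same way, at 44.1, 1.41, 4.27 and 9.71 CPM; the part of T cell transcripts in either value was not tested.

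Il12rb2, the signalling chain of the IL-12 receptor, was at 27.8, 19.7, 31.0 and 33.0 CPM in mature DC, next to 35.3, 35.7, 19.7 and 31.9 CPM in NK cells. These 2 cell types overlapped. The 6 NK markers summed to 181, 26.8, 29.9 and 59.6 CPM in mature DC; their part in the Il12rb2 values was not tested. Stat4, which IL-12 receptors activate, was at 283, 295, 321 and 344 CPM in mature DC and at 3.89, 2.05, 1.68 and 1.76 CPM in monocytes and macrophages. Its log2 difference was 7.56 ± 0.21 (edgeR adjusted p = 1.1e-11). The partner chain gene Il12rb1 gave 1 UMI in all mature DC together. Of the 42 other genes of the axis that had been listed, 35 were tested in this contrast and 18 were higher and 11 lower, where 59.7% of all genes passed. Among them, Il2ra, the high-affinity IL-2 receptor chain, differed by 7.20 ± 0.27 log2 units, Jak2 by 3.08 ± 0.22, and the inflammasome genes Nlrp3 and Pycard by -4.63 ± 0.58 and -2.29 ± 0.16.

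The promoter of Il12rb2 (RefSeq, GRCm38.p6, chr6:67376139-67376438, minus strand) is shown because this member was high in both NK cells and mature DC. The capitals mark a match to TTCNNNGAA, a motif bound by STAT factors, 123 bases before the start, and GGGACTTCCC, a match to the consensus of NF-κB that begins 1 base before the start and runs across it.
Il12rb2 promoter: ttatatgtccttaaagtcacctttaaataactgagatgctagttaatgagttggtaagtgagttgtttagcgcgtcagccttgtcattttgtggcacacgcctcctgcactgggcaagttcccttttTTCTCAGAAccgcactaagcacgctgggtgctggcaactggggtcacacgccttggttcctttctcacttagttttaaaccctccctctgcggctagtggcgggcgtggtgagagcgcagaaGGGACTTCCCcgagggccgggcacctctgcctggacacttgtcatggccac
Both strands were searched in the 300 bases around the start of the 7 members that the promoter table lists. Of 32851 promoters of that length, 8.30% hold TTCNNNGAA and 20.7% hold an NF-κB match, so the matches are descriptions of sequence and not shown binding sites. TTCNNNGAA was also matched 2 times in 1 of the 3 listed promoters of Il18r1, at 219 and 152 bases before its start. The interferon response core, present in 3.44% of promoters, was not found in these windows of the 7.

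Within the myeloid compartment the members separated neighbouring cell types. In cDC1 over cDC2, where 28.3% of 8072 genes passed the edgeR test, 6 members were tested and 1 was higher and 2 lower. Il18 was higher in cDC1 by 2.43 ± 0.16 log2 units (edgeR adjusted p = 1.2e-07), from 13.0, 12.5, 14.5 and 27.9 CPM in cDC2. Il18bp was lower by -1.67 ± 0.21 and Il18rap by -2.51 ± 0.42. In cDC2, Il18rap was at 20.8, 9.69, 18.1 and 18.4 CPM, while Il18r1, the chain that binds the cytokine, was at 10.4, 6.27, 2.42 and 1.47 CPM.

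Macrophages, named by C1q genes, Mrc1, Apoe and Ms4a7, had less of the cytokine transcripts than monocytes. With 22.1% of 9376 genes past the edgeR test, 4 of 8 members were lower and none higher in macrophages, against 11.3% of genes lower. The log2 differences were -1.06 ± 0.23 for Il18, -1.04 ± 0.22 for Il15, -1.51 ± 0.22 for Il15ra and -1.70 ± 0.52 for Il12rb2 (edgeR adjusted p = 0.0066, 0.0053, 0.00044 and 0.034). Without the WT day 9 library or the TCKO day 12 library the Il12rb2 difference did not pass, nor did it with DESeq2 (adjusted p = 0.099) or in Leiden clusters (edgeR adjusted p = 0.054). Il18bp was at 0.58 ± 0.21 (adjusted p = 0.067), so its order between these types was not resolved. Compared with cDC2, monocytes and macrophages had more Il18 (2.28 ± 0.21), Il12rb1 (2.21 ± 0.42), Il15 (1.60 ± 0.16) and Il18bp (1.58 ± 0.17), and less Il18rap (-2.27 ± 0.33) and Il18r1 (-1.83 ± 0.50). There, 34.1% of 9110 genes passed the edgeR test and the 6 called members were among 9 tested. Without the WT day 9 library Il18r1 had an adjusted p of 0.052, and without the WT day 12 library Il12rb1 had one of 0.056. In Leiden clusters the Il12rb1 difference was 0.20 (edgeR adjusted p = 0.78).

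**Figure D3:**
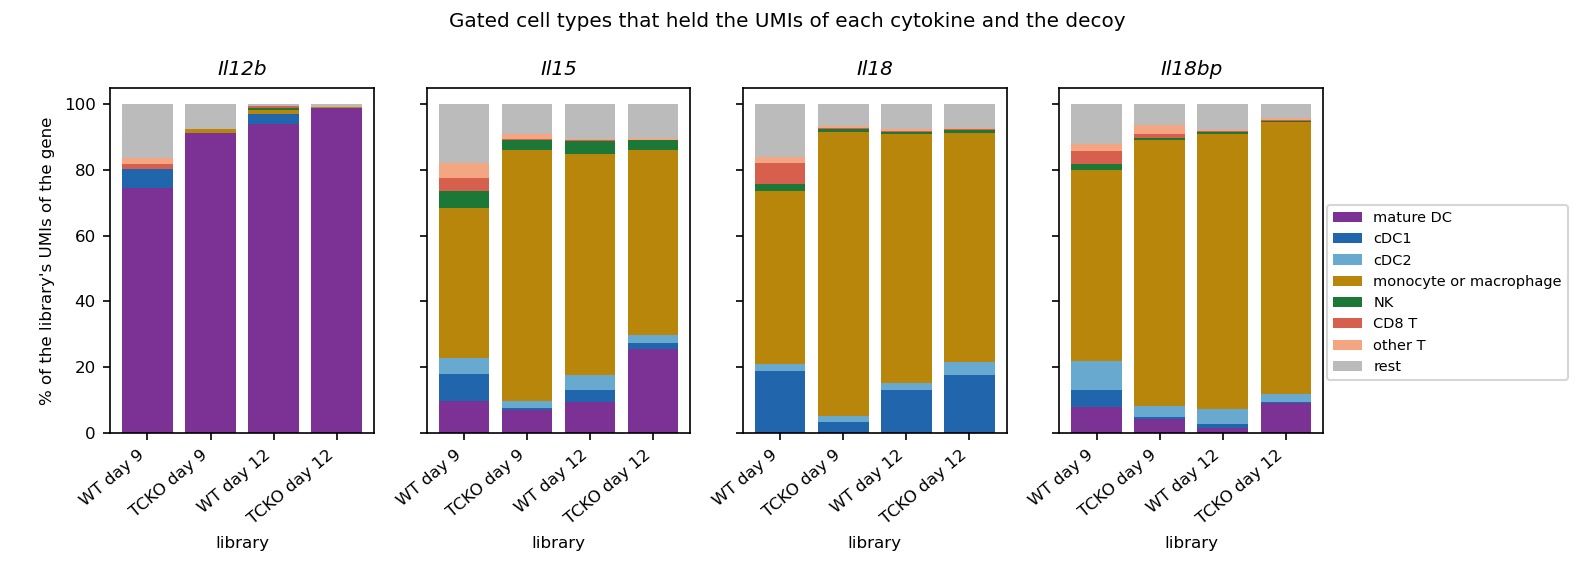
Share of each library's UMIs of Il12b, Il15, Il18 and Il18bp (panels) by cell type (colours), 1 stacked bar per library, in percent. Mature DC hold most Il12b in every library, and monocytes or macrophages hold between 45.5% and 86.5% of Il15, Il18 and Il18bp.

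On the receiving side, Il2rb was highest in NK cells, at 514, 516, 391 and 396 CPM. CD8 T cells were at 334, 157, 168 and 136 CPM, CD4 T cells at 215, 121, 116 and 84.2 CPM, and regulatory T cells at 306, 139, 251 and 188 CPM. NK cells were above each of these types in every library, while regulatory and CD8 T cells overlapped. Il18r1 was at 181, 175, 95.1 and 98.4 CPM in NK cells and at 136, 109, 72.0 and 113 CPM in CD8 T cells, and CD4 T cells spanned 70.2 to 160 CPM, so NK, CD8 and CD4 T cells could not be ordered for it. Il18r1 was lower in regulatory T cells, at 31.2 to 62.1 CPM, though these groups held only 18 to 39 cells.

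In NK over CD8 T cells, 8.63% of 8758 genes passed the edgeR test, and of 9 members 4 were higher and none lower, against 5.33% of genes higher. The 4 were Il15 (3.29 ± 0.44 log2 units), Il12rb2 (1.29 ± 0.30), Il2rb (1.16 ± 0.17) and Il18rap (0.87 ± 0.21), with edgeR adjusted p of 0.0018, 0.031, 0.0031 and 0.033. Il18rap did not pass without the TCKO day 9 or the WT day 12 library, and Il12rb2 did not pass without either day 9 library. Il18r1 (0.27 ± 0.16) and Il12rb1 (0.36 ± 0.25) did not pass. In CD4 over CD8 T cells, where 10% of 4783 genes passed and 3.93% as lower, Il2rb was the only call among 3 members (-0.69 ± 0.17, edgeR adjusted p = 0.024), and it did not pass when any 1 of the 4 libraries was left out, in Leiden clusters or with library totals (edgeR adjusted p = 0.058 to 0.13).

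Il12rb1, the shared chain of the IL-12 and IL-23 receptors, was at 39.9, 43.1, 41.9 and 50.04 CPM in regulatory T cells, a narrow range. In NK cells it was at 28.9, 15.2, 19.7 and 14.9 CPM and in CD8 T cells at 25.7, 9.65, 17.0 and 2.89 CPM. CD4 T cells were at 47.4, 7.87, 21.1 and 25.2 CPM, above regulatory T cells in the WT day 9 library. Regulatory T cells were above NK and CD8 T cells in all 4 libraries, but they rested on 8 to 18 UMIs each. Their difference from NK and CD8 T cells was not tested, and that from CD4 T cells was not because a library held fewer than 20 of them.

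**Figure D4:**
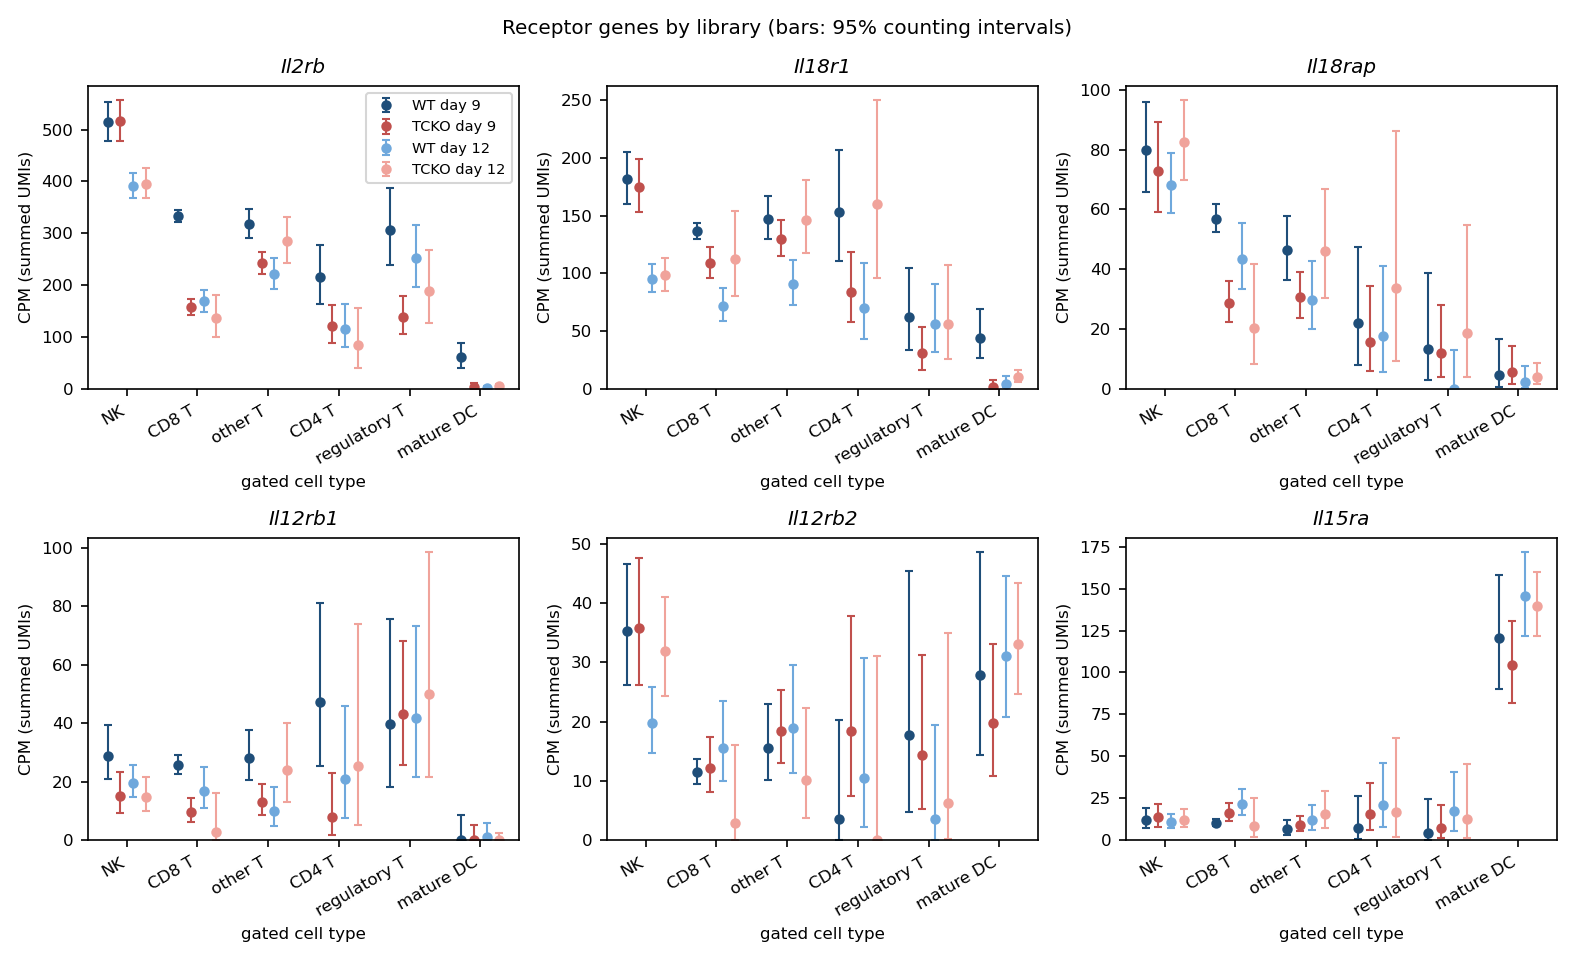
CPM of Il2rb, Il18r1, Il18rap, Il12rb1, Il12rb2 and Il15ra (panels) in 5 lymphocyte types and mature DC (horizontal axis), 1 point per library with 95% counting intervals. Il2rb is highest in NK cells in each library, and Il15ra is highest in mature DC.

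The comparison of knockout with wild type mice asks how these genes were expressed in tumour immune cells when the T cells lacked miR-155. Il18bp passed the edgeR test as lower in TCKO in monocytes and macrophages together, in macrophages alone and in cDC2. It did not pass in monocytes alone, cDC1 or mature DC. No other member passed in any of the 9 cell types fitted. In monocytes and macrophages Il18bp was at 146, 47.6, 206 and 73.5 CPM. Both TCKO values lay below both WT values. The ratio of TCKO to WT was 0.327 (0.288 to 0.372) at day 9 and 0.357 (0.328 to 0.388) at day 12.

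Fitted with genotype and day over the 4 libraries, Il18bp fell by 1.56 ± 0.15 log2 units in monocytes and macrophages (SE, edgeR adjusted p = 0.0046). It was the only 1 of 9 members called there, in a fit in which 0.931% of genes passed and 0.428% passed as lower. A UMI of Il18bp was seen in 58.0% of these cells in WT and 25.3% in TCKO at day 9, and in 64.2% and 35.4% at day 12. After thinning to 3000 UMIs per cell the shares were 27.3%, 10.8%, 40.9% and 14.5%. The share in CD8 T cells, taken as the level that free RNA can give, was 2.75% to 5% unthinned. Their median depths were 4286 to 12146 UMIs, and those of monocytes and macrophages 8521 to 9507 UMIs. Thinning left out 0, 0, 50 and 22 monocytes or macrophages.

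Monocytes and macrophages taken separately are subsets of the cells above, and cDC2 come from the same 4 libraries, so their values are not independent. The Il18bp level was lower in TCKO in these types too. In cDC2 it was at 66.4, 21.1, 61.3 and 14.7 CPM, and it fell by 1.86 ± 0.27 log2 units (edgeR adjusted p = 0.0058), the only call among 5 members with 0.516% of genes called and 0.232% lower. In macrophages it was at 166, 56.7, 205 and 90.1 CPM and fell by 1.36 ± 0.22 (adjusted p = 0.043), 1 of 7 members with 0.461% of genes called and 0.246% lower. In cDC2 taken from Leiden clusters rather than the gate, the difference was -1.66 ± 0.24 (edgeR adjusted p = 7.3e-06). DESeq2 did not call it in cDC2 (adjusted p = 0.27), and in macrophages edgeR did not with median-of-ratios scaling, without doublet removal or with mitochondrial UMIs limited to 5% (adjusted p = 0.064, 0.064 and 0.082). Monocytes, at 96.2, 35.3, 218 and 29.6 CPM, had a log2 difference of -2.08 ± 0.31 that did not pass (edgeR adjusted p = 0.070; DESeq2 adjusted p = 7.8e-05). Of the 4 monocyte members none was called, against 0.267% of genes.

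In cDC1 the level was 22.6, 7.92, 19.0 and 1.45 CPM, the last from 2 UMIs, and the difference did not pass (-2.36 ± 0.55, edgeR adjusted p = 0.58; 0 of 4 members, 0.0276% of genes). Mature DC, with 43 cells in their smallest library, were added to the fits after the cell numbers were seen. Their Il18bp difference was -0.51 with an edgeR adjusted p of 0.99, and 0 of 5 members and 0.0369% of genes were called. The values of the 5 cell types thus lay on the same side at both days, with day 9 ratios of 0.317 to 0.581 and day 12 ratios of 0.0766 to 0.776.

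**Figure D5:**
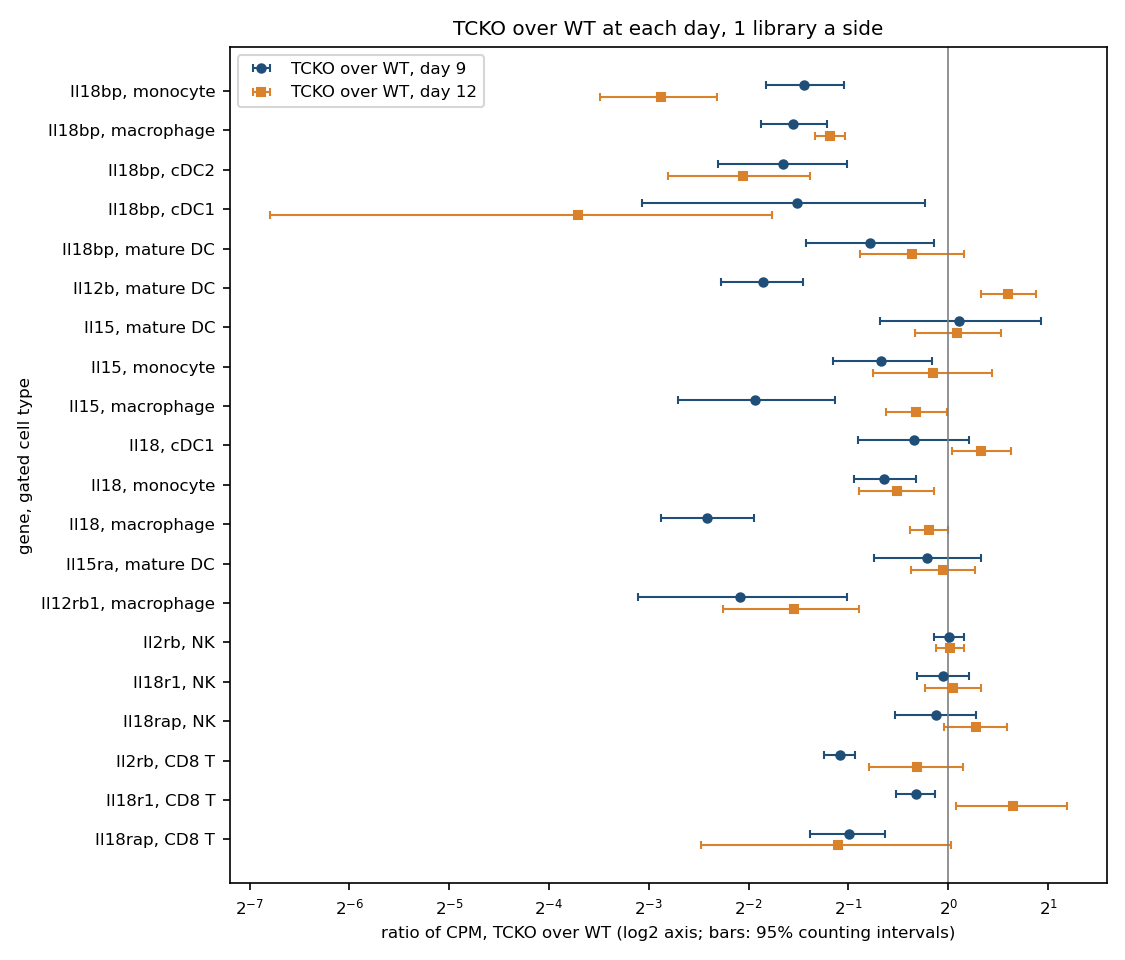
Ratio of TCKO to WT CPM at day 9 and day 12 for selected members and cell types (log2 axis; bars are 95% exact conditional intervals for counting error). The Il18bp ratios lie below 1 at both days in the 5 myeloid types, the NK Il2rb ratios lie at 1, and the Il12b ratios of mature DC lie on opposite sides of 1.

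Among the listed genes that interferon-γ is known to induce, Irf1, a transcription factor gene, was at 303, 173, 206 and 116 CPM in monocytes and macrophages. Both TCKO values lay below both WT values, and it fell by 0.83 ± 0.15 log2 units (edgeR adjusted p = 0.046). Of the 6 listed interferon-γ genes 2 were called in these cells. Of all 36 listed genes 2 were called, both lower, where 0.931% of all genes were called and 0.428% were lower. In macrophages Gbp2, a guanylate-binding protein gene of the interferon-γ list, fell by 1.25 ± 0.21 (edgeR adjusted p = 0.049). From other lists of axis genes, Socs1 fell by 1.52 ± 0.21 (edgeR adjusted p = 0.031). The chemokine gene Xcl1, listed as a response gene of lymphocytes, fell by 2.48 ± 0.42 (edgeR adjusted p = 0.049). Gbp2, Socs1 and Xcl1 were 3 of 33 listed genes, where 0.461% of all genes were called and 0.246% were lower. Within macrophages the T cell marker sum was 37.4, 9.20, 15.9 and 6.79 CPM and the NK marker sum 65.9, 7.70, 14.1 and 15.5 CPM. The part of lymphocyte transcripts in the Xcl1 value was not tested. In cDC2 Irf8, also from another list, rose by 1.09 ± 0.20 (edgeR adjusted p = 0.027). Irf8 is a factor of the cDC1 lineage and one of its gate markers here. Of 33 listed genes in cDC2, 1 rose and 1 fell, where 0.516% of all genes were called. Over 39 sums of cell type and library, the gene whose level was most like that of Il18bp was Gbp2, with a Pearson r of 0.81 on log2(CPM + 1). Those sums share libraries and cell types, so the r is a description.

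The T cell markers and cell make-up moved with genotype beside these values. The T cell marker sum in monocytes and macrophages was 36.8 CPM in WT and 11.2 CPM in TCKO at day 9, and 12.9 and 7.16 CPM at day 12. The macrophage marker sum of those cells was 5486, 4628, 8354 and 10178 CPM, so the TCKO library was lower at day 9 and higher at day 12. Within macrophages it was 11089.9, 11270.0, 12686 and 14889.6 CPM, higher in TCKO at both days while Il18bp was lower. The monocyte marker sum was lower in TCKO at both days, at 9565, 5737, 8712 and 5027 CPM in monocytes and macrophages and at 7096, 1048, 6065 and 3296 CPM within macrophages. The part of cell make-up in the Il18bp values was not tested.

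The other cytokine genes did not pass for genotype. Il18 in macrophages was at 105, 19.7, 74.8 and 65.4 CPM. Its TCKO over WT ratios were 0.188 (0.136 to 0.26001) and 0.875 (0.764 to 1.001). Il15 followed a like order there, at 34.4, 8.98, 32.9 and 26.4 CPM, with ratios of 0.261 (0.153 to 0.454) and 0.801 (0.648 to 0.988). The log2 differences in the fit were -1.17 ± 0.44 for Il18 and -0.89 ± 0.37 for Il15 (edgeR adjusted p = 0.54 and 0.63). Il15ra in cDC2 was at 18.2, 5.70, 15.7 and 4.41 CPM, -1.75 ± 0.45 log2 units (adjusted p = 0.17). Il12rb1 in monocytes and macrophages was at 9.95, 4.89, 12.3 and 3.86 CPM, -1.39 ± 0.27 (adjusted p = 0.063). In those cells 6 of 9 members had an unadjusted edgeR p under 0.05. Of all 10744 genes tested, 538 were higher and 531 lower at that threshold. The median over the 9 members was -0.60 log2 units beside 0.01 over all genes.

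In mature DC the cytokine genes did not pass either. Il15 and Il15ra had ratios of 1.08 (0.623 to 1.91) and 0.865 (0.599 to 1.26) at day 9 and of 1.06 (0.791 to 1.44) and 0.963 (0.773 to 1.20) at day 12. Il12b had a log2 difference of -0.51 ± 0.55 over both days, with opposite ratios at the days, given with the closing values.

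NK cells kept miR-155 host transcripts in TCKO mice and showed no member past the test. Il2rb in NK cells had TCKO over WT ratios of 1.00 (0.902 to 1.12) at day 9 and 1.01 (0.919 to 1.11) at day 12. Il18r1 had ratios of 0.964 (0.803 to 1.16) and 1.03 (0.8505 to 1.26), and Il18rap of 0.915 (0.690 to 1.21) and 1.21 (0.968 to 1.51). The intervals bound what counting error alone allows. In the fit 0 of 9 members were called by edgeR (2 at an unadjusted p under 0.05) with 0.232% of genes called. At that unadjusted threshold 221 of 8186 genes were higher and 219 lower.

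CD8 T cells, which are among the T cells in which miR-155 was to be deleted, had lower median depth in 3 libraries: 12146 UMIs in WT at day 9 against 4919, 4630 and 4286. Il18rap was at 56.9, 28.5, 43.4 and 20.2 CPM, -0.89 ± 0.26 log2 units (edgeR adjusted p = 0.069). Il12rb1 was at -1.41 ± 0.40 (adjusted p = 0.059) and Il2rb at -0.65 ± 0.22 (adjusted p = 0.11). No member of 7 passed, where 6.76% of all genes did, a share too low for 0 of 7 to set the members apart. For the 2 members with a match to the miR-155 seed, Il18r1 had a log2 difference of 0.16 ± 0.23 and Il15ra one of 0.30 ± 0.45. Il15ra in CD8 T cells was at 10.3, 16.4, 21.7 and 8.67 CPM. Its ratios were 1.59 (1.07 to 2.32) and 0.399 (0.0782 to 1.28), the latter from 3 UMIs in TCKO. Cells with UMIs of Dapl1, Igfbp4 or Lef1, genes of resting T cells, made up 226 of 691, 263 of 379, 90 of 234 and 42 of 60 CD8 T cells, more of them in TCKO at both days. Without these cells, an alternative added after the data were seen that leaves 18 cells in the TCKO day 12 library, Il18rap was at -0.39 ± 0.35, Il12rb1 at -1.33 ± 0.60, Il2rb at -0.27 ± 0.26 and Il18r1 at 0.49 ± 0.26 log2 units, and none passed (edgeR adjusted p = 0.74, 0.27, 0.77 and 0.41). Other T cells had too few CD8, Cd4 or Foxp3 UMIs to be divided, or had CD8 UMIs together with those of Cd4 or Foxp3. Other T cells gave 0 of 7 members with 2.01% of genes called.

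Of the 36 listed genes of the axis tested in CD8 T cells, 5 rose and 2 fell, where 6.76% of all genes were called. Gzmb, the granzyme B gene, was at 2118, 208, 1819.9 and 249 CPM and fell by 3.01 ± 0.23 log2 units (edgeR adjusted p = 0.0001). Prf1, the perforin gene, fell by 1.94 ± 0.32, while Socs3 and Socs1, brakes on cytokine receptors, rose by 3.11 ± 0.29 and 1.33 ± 0.30, and Bcl2, a survival gene, rose by 2.03 ± 0.40. Irf1 and Cxcl10 rose by 0.98 ± 0.24 and 1.41 ± 0.35. Ifng in CD8 T cells was at 302, 422, 1457 and 63.6 CPM, so its order reversed between the days, and it did not pass in the additive fit (-1.45 ± 0.86, edgeR adjusted p = 0.39). In other T cells Gzmb, Prf1, Ifng and Irf8 fell and Socs3, Bcl2 and Cxcl10 rose, 7 of 35 where 2.01% of all genes were called, with Ifng at -1.80 ± 0.35 log2 units (edgeR adjusted p = 0.0016). The macrophage marker sum was 13.4, 67.1, 173 and 176 CPM in CD8 T cells and 25.2, 436, 202 and 155 CPM in other T cells. The part of myeloid transcripts or of the resting cells in these T cell values was not tested. In NK cells, 0 of 36 were called. Ifng there was at 70.6, 65.4, 81.5 and 95.2 CPM.

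Between day 9 and day 12, 2 members passed. Il18r1 in NK cells fell by 0.88 ± 0.17 log2 units (edgeR adjusted p = 0.0014), 1 of 9 members, in a fit where 5.9% of genes passed and 3.76% as lower. Both day 12 libraries lay below both day 9 libraries, at 95.1 and 98.4 CPM against 181 and 175 CPM. A UMI of Il18r1 was found in 58.8% and 56.5% of NK cells at day 9 and in 38.7% and 41.0% at day 12. After thinning to 3000 UMIs the shares were 44.1%, 43.2%, 27.8% and 25.3%, with 0, 10, 164 and 62 NK cells left out, and in monocytes and macrophages the unthinned share was 0.811% to 1.68%. Il12rb2 in monocytes and macrophages fell by 1.82 ± 0.44 (edgeR adjusted p = 0.0497), from 5.19 and 3.07 CPM to 1.40 and 0.882 CPM, 1 of 9 members with 6.27% of genes called and 3.59% lower. Neither call passed with DESeq2 (adjusted p = 0.38 and 0.36) or with mitochondrial UMIs limited to 5% (edgeR adjusted p = 0.057 and 0.053), and Il12rb2 did not pass without doublet removal (edgeR adjusted p = 0.062). No member passed for day in CD8 T cells, cDC1, cDC2, macrophages, monocytes, other T cells or mature DC, where 0.417%, 0%, 1.28%, 0.595%, 1.38%, 3.24% and 0% of genes did. Il2rb in NK cells did not pass (-0.39 ± 0.17, edgeR adjusted p = 0.19).

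Single cells added a description of which members lay together. In mature DC with a UMI of Il12b, 58.3%, 78.6%, 89.3% and 75.4% also had one of Il15ra, and of those without Il12b 57.9%, 45%, 48.4% and 50% did. The cells with Il12b were deeper in every library, with median UMIs of 10934, 10346, 8057 and 8768 against 7955, 8574, 6979 and 7775. Over the 39 sums, the gene most like Il15ra was Il12b (Pearson r 0.82), and the gene most like Il12b was Nudt17 (0.95), ahead of the gate markers Fscn1 and Cacnb3. The nearest for the other receptor genes were Gimap4 for Il2rb (0.98), Thy1 for Il18r1 (0.95), Fasl for Il18rap (0.82), Gbp6 for Il12rb1 (0.84) and Adora2a for Il12rb2 (0.83). For Il15 and Il18 they were Sh3glb1 (0.84) and Naaa (0.84).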

How the data were processed

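Whole UMI counts per gene and barcode, deposited by the authors as 1 matrix per library, were used. Per the submitters' processing notes they came from Cell Ranger 2.0.2 and the mm10 build. Cells with at least 200 genes, at most 10% mitochondrial and 5% haemoglobin UMIs were kept, and 25 to 112 cells per library with the highest Scrublet scores were removed at 0.8% per 1000 barcodes, because Scrublet's own threshold called 1 to 10. Cells were gated on fixed markers, of which Trac, Trbc2, Trdc, Tcrg-C1 and Iglc2 were not in the files used here. Counts were summed per cell type and library and tested with edgeR 4.0.16 (TMM, filterByExpr, Benjamini-Hochberg over all genes tested) as genotype plus day (at least 50 cells per library, 1 residual degree of freedom) or cell type plus library. DESeq2 1.42.0, other scalings, filters, gates and left-out libraries were alternatives, and scanpy 1.11.5 gave the Leiden clusters. On simulated data the genotype fit of monocytes and macrophages recovered 65.7% of 2-fold and 95.9% of 4-fold changes among 10768 genes, that of CD8 T cells 44.9% and 92.2% among 8385, and that of cDC2 46.4% and 86.9% among 7733. These 3 simulated fits also called 9, 9 and 8 unchanged genes. The simulation gave all genes 1 dispersion, had no day effect and left low-count genes unchanged, so recovery for low-count members was not tested. Ratios at 1 day carry exact conditional intervals and no test, and were made where the 2 libraries held at least 20 UMIs together. A level at or below 3 counts was read as the floor. Seed matches used the GRCm38 annotation. The members and lists were chosen with earlier results of these data known. Named were all members, the listed genes past adjusted p 0.05 for genotype, at most 2 per list between cell types, and the 3 genes most correlated with each member. Unnamed barcodes and the regulatory T contrast (under 20 cells) were not tested. The result of 1 listed gene is not reported here.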

Additional observations from a re-analysis of the deposited data

Results flagged for a closer look

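For 3 members, in 4 pairs of gene and cell type, the TCKO to WT ratio lay on opposite sides of 1 at the 2 days with counting intervals that did not reach 1. The difference between days was not tested, since each ratio rests on 1 library against 1. Il12b in mature DC, the IL-12 p40 gene, was at 378, 104, 163 and 248 CPM in the order used above. The ratio was 0.276 (0.207 to 0.365) for day 9 and 1.52 (1.25 to 1.84) for day 12. The T cell marker sum of those mature DC was 332, 36.6, 35.3 and 6.48 CPM; its part in the Il12b values was not tested.

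Il18r1 in CD4 T cells had a ratio of 0.549 (0.335 to 0.891) at day 9 and 2.28 (1.15 to 4.49) at day 12, where the TCKO library held 20 such cells and 19 UMIs. Il18r1 in CD8 T cells had ratios of 0.799 (0.697 to 0.913) and 1.57 (1.06 to 2.28). In CD8 T cells without UMIs of Dapl1, Igfbp4 or Lef1, genes of resting T cells, the ratios were 1.15 (0.943 to 1.40) and 2.03 (1.07 to 3.61), so the day 9 value lay on the other side of 1. Il2rb in other T cells had ratios of 0.760 (0.671 to 0.861) and 1.29 (1.05 to 1.58).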

How the results depend on the processing

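The 3 genotype calls, all of Il18bp, became 5 with Leiden clusters, 5 with library totals and 15 without a filter on low counts. Of these 3, the macrophage call shares its cells with that of monocytes and macrophages. The 2 day calls became 0 with DESeq2, 7 with Leiden clusters, 0 with mitochondrial UMIs up to 5%, 1 without doublet removal, which lost Il12rb2 in monocytes or macrophages, and 6 without the filter. The 33 calls between cell types became 27 to 31 when 1 library was left out, and over all alternatives 339 of 357 such calls were kept. Those lost with another tool, gate or scaling were Il12rb2 in macrophages over monocytes (DESeq2 and Leiden clusters), Il12rb1 in monocytes or macrophages over cDC2 (Leiden clusters) and Il2rb in CD4 over CD8 T cells (Leiden clusters and library totals). Of 138 alternatives for genotype results, 4 changed direction, all in NK cells with values near 0: Il18r1 with Leiden clusters (0.0731), and Il2rb with Leiden clusters (-0.00979), without doublet removal (-0.0390) and without the filter (-0.0016). Il18r1 in CD4 over CD8 T cells turned to 0.63 with Leiden clusters (edgeR adjusted p = 0.025) and 0.0493 with library totals, and ranged from -0.222 to 0.0736 when 1 library was left out, positive without TCKO day 9. Il18bp in mature DC over monocytes or macrophages ranged from -0.671 to 0.0151, positive without WT day 12, and Il2rb in mature DC over cDC1 was -0.0923 with Leiden clusters. The cause was not tested. Library totals moved the median log2 difference of all genes to -0.29 in mature DC over cDC1, -0.38 over monocytes or macrophages, 0.15 in CD4 over CD8 T cells and -0.11 for genotype in CD8 T cells, and the share of higher calls from 48.8% to 34.5%, 47.1% to 33.1%, 60.8% to 79.5% and 47.1% to 35.4%.

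Thinning to 3000 UMIs moved the shares of cells with a UMI to 16.1% and 25.0% for Il12b in mature DC at day 12, to 27.3%, 10.8%, 40.9% and 14.5% for Il18bp in monocytes or macrophages and to 44.1%, 43.2%, 27.8% and 25.3% for Il18r1 in NK cells. Counts of genes called ranged from 55 to 507 for genotype in monocytes or macrophages (100 as reported), 9 to 126 in cDC2 (40), 7 to 296 in macrophages (45), 141 to 866 in CD8 T cells (567), 2 to 92 in other T cells (155) and 16 to 599 for day in NK cells (483). No paired analysis was possible because each group has 1 library. Leaving out a library was not possible for genotype or day, since 3 libraries leave no residual degree of freedom. Depth limits receptor genes such as Il12rb1 and Il12rb2, whose sums in CD8 T cells of the TCKO day 12 library were 1 UMI each.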
